A study of Mus musculus with 6 samples.

Results

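IGHV1-26, IGHV1-61 and IGHV1-62-3 are 3 of the 105 V genes found in 2 IgH libraries, made from an iB-μMT mouse and from a B6 mouse. They were chosen by their shares of the IgH library, which were lower in the iB-μMT mouse, so their shares of reads and of clonotypes are described here without a test. Their members are the clonotypes whose first V hit was 1 of these genes, 215 of 7794 IgH clonotypes for the iB-μMT mouse and, for the B6 mouse, 632 of 6781. Each clonotype has its own CDR3 nucleotide sequence, CDR3 being the loop formed where the V, D and J segments join.

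The iB-μMT mouse was a μMT mouse (B6.129S2-Ighmtm1Cgn/J), a strain that makes no B cells of its own because the μ chain gene is disrupted. It was a young adult when it was sublethally irradiated and given iHPCs, and its spleen was taken at week 4 after transplantation. The iHPCs came from the *iR9X2*-ESC line on a C57BL/6 background, made of selected clones. The line carries *GFP* and a puromycin resistance gene at *Hipp11*, and doxycycline-inducible *Runx1*, *Hoxa9* and *Lhx2* with a hygromycin resistance gene at *Rosa26*. The *GFP* and the rtTA activator were driven by the CAG promoter, and doxycycline was given during differentiation and in the drinking water afterwards. The control was a C57BL/6 (B6) mouse for which no transplantation, irradiation, doxycycline or transgene is described and whose age is not given in the sources used here. From both spleens, naïve FO B cells, the recirculating B cells that populate lymphoid follicles, were sorted by surface markers that included high IgD and CD23, with no gate on GFP described. The sorted cells are called iB cells and B6 cells here after their mouse. Each group was 1 mouse and 1 IgH library, so differences between them have no replicates behind them.

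The IgH tables held 909806 reads in iB cells and 1383617 reads in B6 cells. The amplified reads had no described molecular identifiers, so each clonotype was counted once, and the 95% Wilson intervals given for shares cover counting error only. A C gene was given for 211 member clonotypes of iB cells and 625 of B6 cells, and it was IGHM, the constant region of IgM, in every one. IGHD, the constant region of IgD, was given for none of the 847 member clonotypes of this IgD-high sort. Over all V genes, a C gene other than IGHM was given for 6 clonotypes of iB cells and 4 of B6 cells. Which constant regions the libraries could show is not described, so the absence of IGHD is not a finding about these genes.

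In the mouse, IGHV1 is the largest family of heavy chain V genes, known as J558, and most of its genes lie in the part of the locus far from the D segments. During B cell development a D segment is first joined to a J segment, and a V gene is then joined to DJ. Use of distal V genes depends on contraction of the locus, which brings them close to the DJ join. The enzyme TdT adds nucleotides without a template at both joins, and its activity is low in fetal B cell development and high in adult bone marrow. Many IGHV1 genes are close copies of each other, which makes the assignment of a clonotype to 1 of them depend on a few base differences.

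The RefSeq gene table of GRCm38.p6, the build called mm10 in the submitters' processing notes, places the genes on chromosome 12 and annotates them as V segments. IGHV1-26 lies at chr12:114788372-114788665, 1262 kb from the nearest D segment. IGHV1-61 lies at chr12:115359140-115359433, at 1832 kb, and IGHV1-62-3 at chr12:115460999-115461431, at 1934 kb. IGHV1-61 and IGHV1-62-3 are 102 kb apart, whereas IGHV1-26 lies nearer to the D segments.

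The largest clonotype of each gene in each mouse shows what the joins look like. The sequences are CDR3 from 5′ to 3′ as read in the libraries, in lower case, with the nucleotides inserted between V and D or between D and J in capitals.
IGHV1-26 with IGHD2-8 and IGHJ2, iB cells, 450 reads: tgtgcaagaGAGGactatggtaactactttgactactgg
IGHV1-26 with IGHD2-7 and IGHJ2, B6 cells, 1271 reads: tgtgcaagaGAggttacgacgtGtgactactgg
IGHV1-61 with IGHD1-1 and IGHJ2, iB cells, 212 reads: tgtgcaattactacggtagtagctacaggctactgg
IGHV1-61 with IGHD2-5 and IGHJ2, B6 cells, 769 reads: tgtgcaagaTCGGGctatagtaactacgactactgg
IGHV1-62-3 with IGHD2-3 and IGHJ2, iB cells, 924 reads: tgtgcaagatggttactagactactgg
IGHV1-62-3 with IGHD2-5 and IGHJ1, B6 cells, 879 reads: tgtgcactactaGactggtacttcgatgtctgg
In the iB-μMT mouse the largest clonotypes of IGHV1-61 and IGHV1-62-3 had no nucleotide counted as inserted at either join. All 3 largest clonotypes of B6 cells had at least 1.

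The V genes end alike at the join. In clonotypes whose V segment was not trimmed, the V part of CDR3 was tgtgcaaga in 108 of 108 IGHV1-26 clonotypes of iB cells and 242 of 244 of B6 cells. It was the same in 15 of 15 and 86 of 87 IGHV1-61 clonotypes, and in 58 of 58 and 165 of 166 IGHV1-62-3 clonotypes. This end is common in the family, being the most frequent one in 33 of the 38 IGHV1 genes counted. CDR3 therefore does not tell these genes apart, and their assignment rests on the V sequence upstream of it.

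IGHV1-26 was the most used heavy chain V gene of B6 cells by clonotypes. It had 311 clonotypes there, 4.59% (4.11 to 5.11%), and 128 in iB cells, 1.64% (1.38 to 1.95%), where it ranked 13th. Its share was 2.79-fold lower in iB cells by clonotypes and 2.89-fold lower by reads (2.09% and 6.05% of reads). The gene was thus among the more used V genes in both mice.

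IGHV1-62-3 had 201 clonotypes in B6 cells, 2.96% (2.59 to 3.40%), and 69 in iB cells, 0.885% (0.70 to 1.12%). Its share was 3.35-fold lower by clonotypes and 3.11-fold lower by reads (1.34% and 4.17% of reads). It ranked 7th by clonotypes in B6 cells and 38th in iB cells.

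IGHV1-61 had 120 clonotypes in B6 cells, 1.77% (1.48 to 2.11%), and 18 in iB cells, 0.231% (0.146 to 0.365%). Its share was 7.66-fold lower by clonotypes and 12.6-fold lower by reads (0.17% and 2.14% of reads). Of the 18 clonotypes, 7 had fewer than 10 reads, or 38.9% against 8.39% of all IgH clonotypes of that library. Among clonotypes with at least 10 reads, the share was 11.9-fold lower.

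Of the 77 V genes that reached 20 clonotypes in all, 17, or 22.1%, had a share at least 2-fold lower in iB cells, a contrast that had served to choose the genes. Every one of these 17 was an IGHV1 gene. All 3 genes were among them, with the lowest ratio for IGHV1-61, the fifth lowest for IGHV1-62-3 and the seventh lowest for IGHV1-26. Just inside and outside the fold of 2 lay IGHV1-69 (2.04-fold lower) and IGHV1-59 (1.98-fold lower). The other 48 IGHV1 genes together had 27.0% of clonotypes in iB cells and 50.0% in B6 cells, 1.85-fold lower. Within the IGHV1 family, the 3 genes held 9.26% of clonotypes in iB cells (8.15 to 10.5%) and 15.7% in B6 cells (14.6 to 16.9%).

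**Figure D1:**
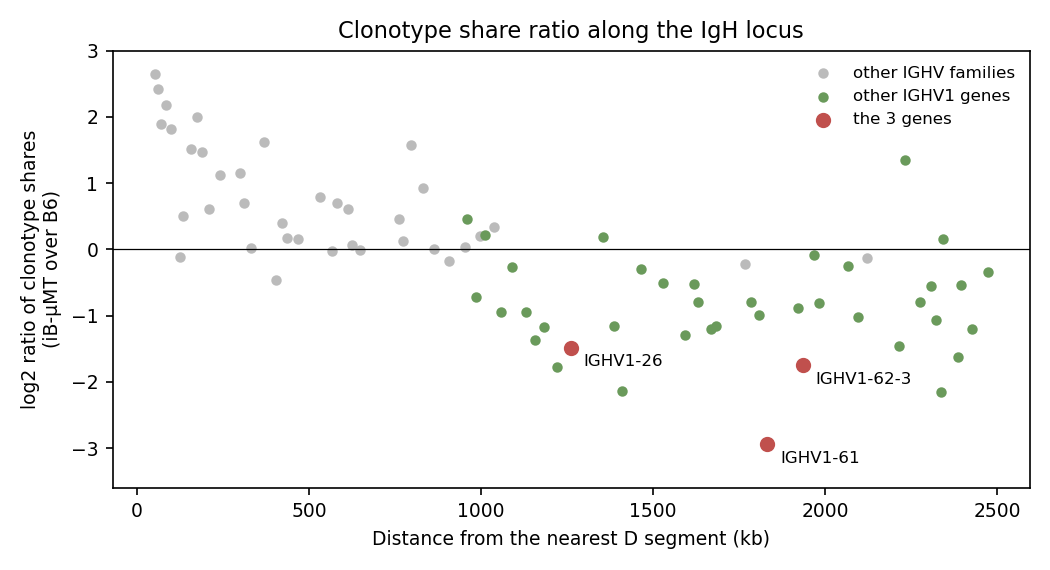
The log2 ratio of clonotype shares, iB over B6 cells, is plotted against the distance in kb from the nearest D segment for V genes with at least 20 clonotypes in both libraries together. The 3 genes (large red points) lie at -1.48 for IGHV1-26, -2.94 for IGHV1-61 and -1.74 for IGHV1-62-3, below 0 like most other IGHV1 genes (green), while other families are in grey.

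Neighbours of the 3 genes on the locus were taken among the V genes that reached 20 clonotypes in all. Their log2 ratios were below 0, except for IGHV1-36 (0.19). On the D side of IGHV1-26, IGHV1-22 was 3.42-fold lower in iB cells (44 and 131 clonotypes) and IGHV1-19 was 2.25-fold lower (52 and 102). On its other side, IGHV1-36 had 21 clonotypes in iB cells and 16 in B6 cells, and IGHV1-39 was 2.23-fold lower (51 and 99). Genes with fewer clonotypes lie among these and had fewer in iB cells than in B6 cells, with 6 and 10 for IGHV1-20, 1 and 10 for IGHV1-23, 5 and 9 for IGHV1-31, 0 and 3 for IGHV1-33, 5 and 14 for IGHV1-34 and 2 and 7 for IGHV1-37. Beside IGHV1-61, IGHV1-58 was 1.74-fold lower and IGHV1-59 was 1.98-fold lower. IGHV1-62-2, which lies between IGHV1-61 and IGHV1-62-3, was 1.84-fold lower (20 and 32 clonotypes), and IGHV1-62-1, also between them, had 0 and 1. Beyond IGHV1-62-3, IGHV1-63 was 1.06-fold lower (27 and 25 clonotypes) and IGHV1-64 was 1.74-fold lower (170 and 258).

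The genes most like each of the 3 were those with the nearest log2 ratio over these 2 libraries, among the 77 V genes that reached 20 clonotypes in all. For IGHV1-26 they were IGHV1-71, IGHV1-18 and IGHV1-80, at log2 distances of 0.03, 0.11 and 0.14. For IGHV1-62-3 they were IGHV1-22, IGHV1-80 and IGHV1-26, at 0.03, 0.12 and 0.26. For IGHV1-61 they were IGHV1-77, IGHV1-42 and IGHV1-22, at 0.79, 0.80 and 1.16.

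The V hits of the clonotypes show how firmly each gene was assigned. MiXCR scores each V gene against the reads of a clonotype, and the lead of the best gene over the next is measured here in units of that score. For IGHV1-26 the next gene was most often IGHV1-18, in 45.3% of its clonotypes of iB cells and 51.8% of those of B6 cells. The median lead was 177 and 152, respectively, and 128 of 128 and 308 of 311 clonotypes had a single best gene. IGHV1-26 was therefore well separated from its nearest gene in both mice.

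For IGHV1-61 the next gene was IGHV1-52 in 16 of 18 clonotypes of iB cells and 116 of 120 of B6 cells, and the median lead was 34.1 and 15.2. A tie with IGHV1-64 and IGHV1-66 was found in 1 of the 18 clonotypes. The best V score itself had a lower quartile of 835 in iB cells and 1916 in B6 cells, so part of the IGHV1-61 assignments in iB cells rested on lower scores. For IGHV1-62-3 the next gene was IGHV1-72, a V gene known for its use in the response to NP in C57BL/6 mice, in 66 of 69 and 194 of 201 clonotypes. The median lead was 11.3 in iB cells and 49.9 in B6 cells, so that the gene was less firmly told from IGHV1-72 in iB cells. For the clonotypes assigned to IGHV1-72 itself it was 14.9 and 42.0.

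**Figure D2:**
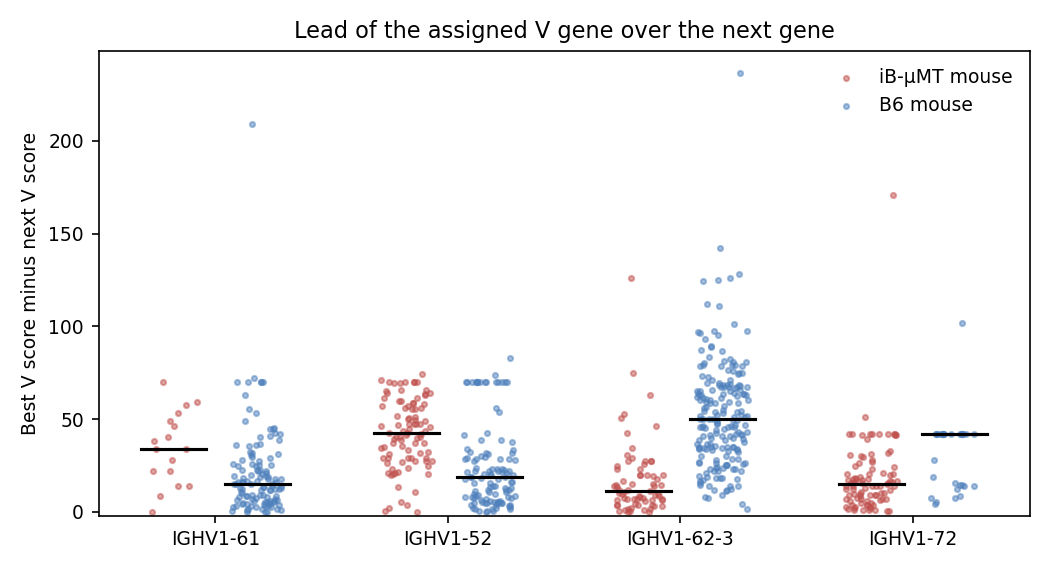
The best V score minus the score of the next V gene is plotted for each clonotype of IGHV1-61, IGHV1-52, IGHV1-62-3 and IGHV1-72 in iB cells (red) and the B6 mouse (blue), with bars at the medians. IGHV1-62-3 clonotypes lie lower in iB cells (median 11.3) than in B6 cells (median 49.9), whereas IGHV1-61 clonotypes lie lower in B6 cells (15.2 against 34.1).

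Counting each gene together with its most frequent next gene, an alternative chosen after seeing the data, gave a different order. IGHV1-72 was the gene of 94 clonotypes in iB cells and 32 in B6 cells, higher in iB cells where IGHV1-62-3 was lower. Together they had 163 clonotypes, 2.09% (1.80 to 2.43%), and 233 clonotypes, 3.44% (3.03 to 3.90%), respectively. The pair was 1.64-fold lower in iB cells, in place of 3.35-fold for IGHV1-62-3 alone. IGHV1-62-3 held 42.3% of the pair in iB cells (35.0 to 50.0%) and 86.3% in B6 cells (81.3 to 90.1%).

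IGHV1-52 had 91 clonotypes in iB cells and 114 in B6 cells, a share 1.44-fold lower in iB cells. IGHV1-61 and IGHV1-52 together were 2.47-fold lower in iB cells (1.40% and 3.45%), in place of 7.66-fold for IGHV1-61 alone. IGHV1-61 held 16.5% of that pair in iB cells (10.7 to 24.6%) and 51.3% in B6 cells (44.9 to 57.6%). IGHV1-26 and IGHV1-18 together were 2.72-fold lower (2.50% and 6.81%), close to IGHV1-26 alone, and IGHV1-26 held 65.6% and 67.3% of its pair. How far the split within a pair comes from the V assignment was not tested.

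**Figure D3:**
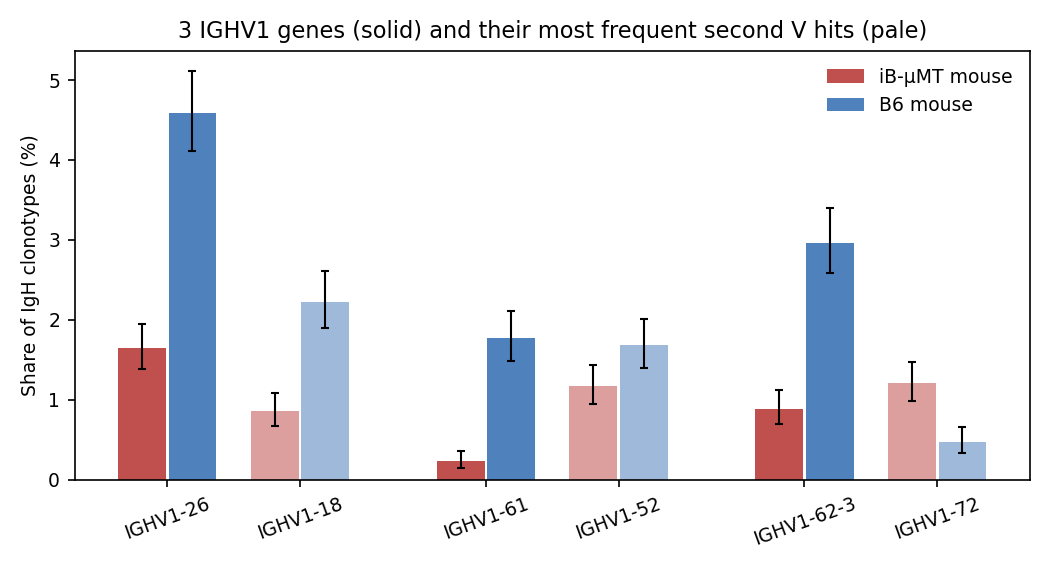
Bars give the share of IgH clonotypes in percent for the 3 genes (solid) and their most frequent second V hits (pale) in iB cells (red) and the B6 mouse (blue), with 95% Wilson intervals. All 3 genes and IGHV1-18 are lower in iB cells. IGHV1-52 is 1.44-fold lower there, with intervals that overlap, and IGHV1-72 is higher in iB cells (1.21% against 0.472%).

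Requiring a lead of at least 20, or no second gene, also chosen after seeing the data, left 19 IGHV1-62-3 clonotypes in iB cells and 179 in B6 cells, a share 10.98-fold lower. It left 14 and 45 IGHV1-61 clonotypes, 3.75-fold lower, so that the order of these genes turned. The IGHV1-26 share was then 2.83-fold lower. Each gene, alone or with its next gene, was lower in iB cells under every way of counting. That contrast had served to choose the genes, so its direction is no support. The fold ranged from 2.72 to 2.89 for IGHV1-26, from 2.47 to 12.6 for IGHV1-61 and from 1.64 to 10.98 for IGHV1-62-3. The low ends, 2.72, 2.47 and 1.64, are those of the pairs.

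By reads, the median clonotype of these genes was above that of its library, except for IGHV1-61 in iB cells. IGHV1-26 clonotypes had a median of 149 reads in iB cells (1 to 450) and 259 in B6 cells (1 to 1271), 1.55 and 1.41 times the median of their libraries. IGHV1-62-3 clonotypes had a median of 153 (2 to 924) and 279 (1 to 879), 1.59 and 1.52 times the library median. IGHV1-61 clonotypes had a median of 90.5 (1 to 212) and 256.5 (1 to 769), 0.943 and 1.39 times the library median. For the other IGHV1 genes the ratios were 1.36 and 1.13. The largest IGHV1-62-3 clonotype of iB cells held 7.59% of the reads of that gene, against 1.53% in B6 cells. The 10 largest IGHV1-61 clonotypes of iB cells held 93.6% of its reads, so its read share there rests on few clonotypes.

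The mean number of nucleotides inserted at the joins was lower in iB cells for each of the 3 genes. Over clonotypes with a D gene, IGHV1-26 had a mean of 4.27 inserted nucleotides in iB cells (SD 3.43, n = 109 clonotypes) and 6.52 in B6 cells (SD 4.08, n = 266). IGHV1-61 had 4.14 (SD 3.03, n = 14) and 6.23 (SD 3.62, n = 106). IGHV1-62-3 had 3.82 (SD 2.83, n = 60) and 6.73 (SD 3.68, n = 179). The differences were -2.25 (95% interval -3.06 to -1.44), -2.08 (-3.82 to -0.35) and -2.91 (-3.81 to -2.01), with intervals from the standard errors over clonotypes.

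Most V genes differed in this direction. A mean at least 1 nucleotide lower in iB cells was found in 68 of 73 V genes with at least 10 such clonotypes in each library, or 93.2%, and in all 3 genes. The median difference over the 73 genes was -2.05. IGHV1-62-3 had the sixth largest decrease, IGHV1-26 the 18th and IGHV1-61 the 33rd. The other IGHV1 genes together differed by -2.09 (-2.29 to -1.89).

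Both joins had lower means in iB cells. Between V and D the 3 genes together had a mean of 3.02 inserted nucleotides in iB cells (SD 2.60) and 4.08 in B6 cells (SD 2.85), and between D and J 1.09 (SD 1.74) and 2.45 (SD 2.57). For IGHV1-26 the means were 3.11 and 4.24 between V and D, and 1.16 and 2.28 between D and J. For IGHV1-62-3 they were 2.82 and 3.97, and 1 and 2.76. No nucleotide was inserted between D and J in 59.0% and 25.2% of the clonotypes of the 3 genes, against 52.4% and 28.9% for the other IGHV1 genes. Between V and D the shares were 16.9% and 9.44%, against 16.2% and 10.9%. Of the inserted nucleotides, 67.8% were G or C in iB cells and 69.5% in B6 cells.

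**Figure D4:**
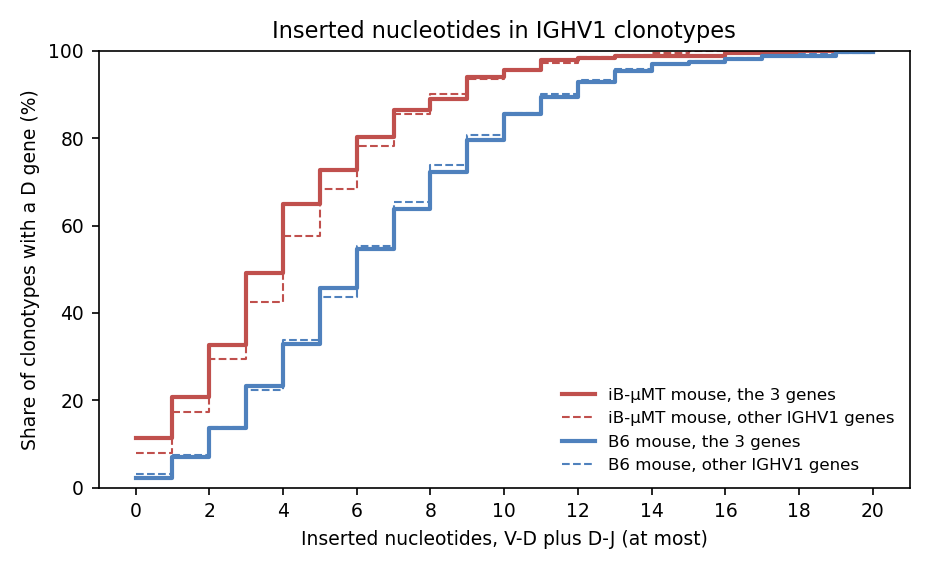
The cumulative share in percent of clonotypes with a D gene is plotted against the number of inserted nucleotides (V-D plus D-J, shown up to 20) for the 3 genes (solid) and the other IGHV1 genes (dashed). The curves of iB cells (red) lie above those of B6 cells (blue) at low numbers, with 11.5% and 2.36% of clonotypes of the 3 genes at 0, and in each mouse the 3 genes run close to the rest of the family.

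Clonotypes with no inserted nucleotide at either join were tested in each V gene, in a test that compares the 2 libraries and not the conditions. For IGHV1-62-3 they were 7 of 60 in iB cells, 11.7% (5.77 to 22.2%), and 2 of 179 in B6 cells, 1.12% (0.307 to 3.98%). This difference of 10.5 percentage points passed (Fisher's exact test, two-sided, Benjamini-Hochberg adjusted p = 0.0244 over 77 V genes), but not among clonotypes with at least 8 nucleotides of D (adjusted p = 0.0782) or with a V score lead of at least 20 (adjusted p = 0.516). Over the alternatives run for it the adjusted p lay between 0.0202 and 0.516.

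For IGHV1-26 they were 12 of 109, 11.01% (6.41 to 18.3%), and 11 of 266, 4.14% (2.32 to 7.25%). The test was not passed (Fisher's exact test, adjusted p = 0.0934), except among clonotypes with at least 8 nucleotides of D (adjusted p = 0.03). For IGHV1-61 they were 2 of 14, 14.3% (4.01 to 39.9%), and 0 of 106, which allows a share of up to 3.50% (upper Wilson limit), and the test was not passed (Fisher's exact test, adjusted p = 0.0892). Over all 77 V genes, 7, or 9.09%, were called with a higher share in iB cells, and 22, or 28.6%, had an unadjusted p under 0.05. Within a mouse, by the same test, 0 of 35 IGHV1 genes in iB cells and 0 of 36 in B6 cells were called, 0% each, also with 0 at an unadjusted p under 0.05. In each mouse the share of clonotypes without inserted nucleotides did not differ detectably between each of the genes tested and the other IGHV1 clonotypes. In the iB-μMT mouse it was 11.01% for IGHV1-26 against 8.15% (Fisher's exact test, adjusted p = 0.978) and 11.7% for IGHV1-62-3 against 8.20% (adjusted p = 0.978), and IGHV1-61 had too few clonotypes for the test. In the B6 mouse it was 4.14%, 0% and 1.12% for IGHV1-26, IGHV1-61 and IGHV1-62-3 against 2.89%, 3.08% and 3.08% (Fisher's exact test, each adjusted p = 0.897).

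The largest clonotypes without inserted nucleotides are given here, beside those of IGHV1-61 and IGHV1-62-3 given above. In each, MiXCR left no base between the segment ends, and whether every base matches its segment was not tested.
IGHV1-26 with IGHD1-1 and IGHJ1, iB cells, 249 reads: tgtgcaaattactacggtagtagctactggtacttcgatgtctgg
IGHV1-26 with IGHD2-5 and IGHJ4, B6 cells, 625 reads: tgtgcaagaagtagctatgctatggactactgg
IGHV1-62-3 with IGHD2-3 and IGHJ1, B6 cells, 401 reads: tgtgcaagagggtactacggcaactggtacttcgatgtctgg
The first of these was also found in B6 cells, with 178 reads, and is 1 of 3 member clonotypes found in both mice. The other pair of shared clonotypes are given next, the second of which had no D gene, so its inserted nucleotides could not be counted.
IGHV1-26 with IGHD5-7 and IGHJ2, both mice: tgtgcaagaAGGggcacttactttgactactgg
IGHV1-62-3 with IGHJ2, both mice: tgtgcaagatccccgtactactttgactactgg
Their reads were unequal, with 1 in iB cells and 607 in B6 cells for the IGHV1-26 clonotype, and 2 and 30 for the IGHV1-62-3 clonotype. Shared clonotypes were 1.40% of the member clonotypes of iB cells and 0.475% of those of B6 cells, and IGHV1-61 had none. Over all V genes they were 34 of 7794 and 34 of 6781 clonotypes. Without them the share of the 3 genes was 3.41-fold lower in iB cells, in place of 3.38-fold.

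With the 3 genes, IGHD1-1 had a lower share and IGHD4-1 and IGHD2-3 had higher shares in iB cells. IGHD1-1, the long D segment also called DFL16.1, was found in 24.6% of clonotypes with a D gene in iB cells (18.9 to 31.3%) and 35.2% in B6 cells (31.3 to 39.3%). For the other IGHV1 genes the shares were 23.4% and 34.9%. IGHD4-1, the D segment nearest to the J segments and also called DQ52, was found in 18.6% (13.6 to 24.8%) and 9.62% (7.43 to 12.4%), against 17.9% and 9.83% for the other IGHV1 genes. IGHD2-3 was found in 20.2% (15.04 to 26.6%) and 11.8% (9.36 to 14.8%), against 14.6% and 10.8%. These shares are a description of the libraries, and no test was made of them.

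By gene, IGHD1-1 had 26.6% and 36.5% with IGHV1-26, 23.3% and 34.6% with IGHV1-62-3, and 2 of 14 and 35 of 106 with IGHV1-61. IGHD2-3 had 20.2% and 7.52% with IGHV1-26 but 12 of 60 and 31 of 179 with IGHV1-62-3. IGHD4-1 had 15.6% and 8.65% with IGHV1-26, 21.7% and 8.94% with IGHV1-62-3, and 4 of 14 and 14 of 106 with IGHV1-61. For the 3 genes together, IGHD2-4 had 13.7% and 14.5%, IGHD2-8 had 8.74% and 5.08%, IGHD2-5 had 4.37% and 6.53%, IGHD2-7 had 4.37% and 6.17%, and IGHD3-2 had 2.19% and 4.54%. The intervals of these 5 D genes overlapped between the mice.

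**Figure D5:**
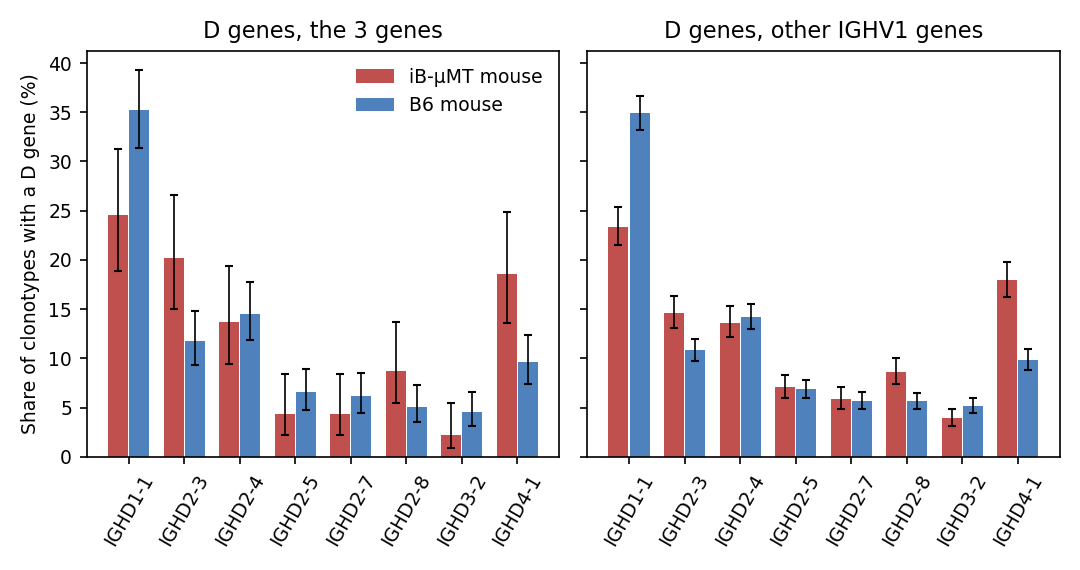
Bars give the share in percent of clonotypes with a given D gene, among those with a D gene, in iB cells (red) and the B6 mouse (blue), with 95% Wilson intervals, for the 3 genes (left) and the other IGHV1 genes (right). In both panels IGHD1-1 is lower and IGHD4-1 is higher in iB cells.

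No J gene passed the test with any of the 3 genes. With IGHV1-26, IGHJ2 had 34.4% of clonotypes in iB cells and 29.6% in B6 cells (95% interval of the difference -4.52 to 14.6 percentage points), IGHJ3 had 20.3% and 27.3% (-15.01 to 2.05), IGHJ4 had 28.9% and 25.4% (-5.29 to 13.02) and IGHJ1 had 16.4% and 17.7% (-8.40 to 7.04). With IGHV1-62-3, IGHJ2 had 42.0% and 40.3% (-11.2 to 15.2), IGHJ4 had 26.1% and 21.9% (-6.66 to 16.7), IGHJ3 had 15.9% and 21.4% (-14.6 to 6.13) and IGHJ1 had 15.9% and 16.4% (-9.38 to 10.8). With IGHV1-61, IGHJ2 had 11 of 18 and 47 of 120 clonotypes (-2.26 to 42.3 percentage points). IGHJ1, IGHJ3 and IGHJ4 had 1, 3 and 3 of the 18 clonotypes and 18, 32 and 23 of the 120. None of the 12 pairs passed (Fisher's exact test, Benjamini-Hochberg adjustment over 308 pairs of a V and a J gene), and 0 of them had an unadjusted p under 0.05. Over all 308 pairs, 0 were called, or 0%, and 14, or 4.55%, had an unadjusted p under 0.05. Many of these intervals leave room for differences of over 10 percentage points. For the 3 genes together, which were not tested as a group, IGHJ3 had 18.6% and 25.3% (-12.5 to -0.127 percentage points), the only J gene whose interval left out 0.

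Against the other IGHV1 clonotypes of the same mouse, no J gene passed the test with IGHV1-26 or IGHV1-62-3 in either mouse, or with IGHV1-61 in B6 cells. IGHV1-61 was not tested in iB cells, where it had 18 clonotypes. Of 140 pairs tested in iB cells 0 were called by Fisher's exact test after adjustment, with 7, or 5%, at an unadjusted p under 0.05. Of 144 pairs in B6 cells 1 was called, or 0.694%, with 11, or 7.64%, at an unadjusted p under 0.05, and it belonged to IGHV1-9, which was named after its value was seen. The nearest among the 3 genes was IGHJ2 with IGHV1-26 in B6 cells, 29.6% against 35.4% (Fisher's exact test, adjusted p = 0.537).

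The mean length of CDR3 was lower in iB cells for each of the genes. IGHV1-26 had a mean of 13.5 amino acids (SD 2.43, n = 128) against 13.9 (SD 2.75, n = 311), IGHV1-61 had 12.6 (SD 3.03, n = 18) against 13.6 (SD 2.59, n = 120), and IGHV1-62-3 had 12.9 (SD 2.53, n = 69) against 13.98 (SD 2.49, n = 201). For the other IGHV1 genes the means were 13.5 and 13.9. These differences are smaller than 1 SD over clonotypes, which describes the clonotypes and not the uncertainty of a difference in means. The differences were not tested.

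The V end was left whole in 84.2% of member clonotypes of iB cells (78.7 to 88.5%) and 78.6% of B6 cells (75.3 to 81.7%). For the other IGHV1 genes the shares were 76.8% (74.99 to 78.6%) and 74.9% (73.4 to 76.3%). A stop codon lay in CDR3 of 1 of 215 member clonotypes of iB cells and 6 of 632 of B6 cells, 0.465% and 0.949%, against 0.997% and 2.01% for the other IGHV1 genes. No D gene was assigned in 14.9% and 12.8% of member clonotypes.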

How the data were processed

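The 2 IgH libraries, from sorted naïve FO B cells of each mouse, were made by 5′ RACE and sequenced on an Illumina MiSeq. The authors assembled clonotypes with MiXCR and deposited, per clonotype, a count of reads, the corresponding fraction of all reads and a minimum quality score of CDR3. The deposited counts were used without normalization, and no reported value rests on the fraction or the quality score. The 4 light chain libraries were not used. MiXCR's gene library is not given in the sources used here.

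The first V, D and J hits were used. Nucleotides between the ends of V and D, or of D and J, as placed by MiXCR, were counted as inserted where a D gene was given. MiXCR reported no overlapping ends, so shared bases at a join were not counted. All 105 V gene names matched the RefSeq table. Fisher's exact test (two-sided, Benjamini-Hochberg adjustment, threshold 0.05) was used between libraries for V genes with at least 20 clonotypes together and 5 in each (with a D gene, for insertions), and within a library for IGHV1 genes with at least 20 there. A simulation covered only the comparison of clonotypes without inserted nucleotides between the libraries. On simulated clonotypes that test recovered 10 of 10 V genes changed by a factor of 6 and called 0 of 67 unchanged ones. That factor is above the difference seen over all V genes, 8.77% of clonotypes without inserted nucleotides in iB cells and 2.79% in B6 cells. The simulation therefore does not show how often smaller differences would be found. At these depths 3 reads are 0.00033% and 0.000217% of the libraries. The members, lists and tests were chosen with earlier results of these data known. Named genes were the 3 genes, among V genes with at least 20 clonotypes together their 2 neighbours on each side and the 3 with the nearest ratio, tied genes, IGHJ genes and D genes with at least 5% of a gene's clonotypes. IGHV1-18, IGHV1-52, IGHV1-72 and the V genes under 20 clonotypes were named after their values were seen. Python 3.11.15, NumPy 2.4.6, SciPy 1.17.1, pandas 2.3.3 and matplotlib 3.10.9 were used.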

Additional observations from a re-analysis of the deposited data

How the results depend on the processing

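Of 127 values recomputed under the alternatives (at least 2 or 10 reads, merged near-identical clonotypes, a single best V gene, no shared clonotypes, no stop codons, weighting by reads, at least 8 nucleotides of D, and the alternatives on similar V genes chosen after seeing the data), 114 kept their direction and, where tested, their side of the threshold, or moved by less than their spread or interval, and 0 reversed. The 127 include the shares that had served to choose the genes, so the direction of those shares is no support. They also include counts of called tests, which were taken as kept after a small change, such as 5 or 6 V genes called in place of 7. Among the 114 values, the difference in clonotypes without inserted nucleotides still changed in size. For IGHV1-62-3 it was 17.5 percentage points weighted by reads, in place of 10.5 by clonotypes. For IGHV1-61 it was 14.3 percentage points in the main count. Over the alternatives it ranged from 7.69 with a single best V gene to 16.9 weighted by reads, with 9.09 for at least 8 nucleotides of D. The IGHV1-61 difference was not called in the main count or under any alternative tested. Weighted by reads, the difference in share, iB-μMT minus B6, was -3.95 percentage points for IGHV1-26, -1.97 for IGHV1-61, -2.83 for IGHV1-62-3 and -8.75 for the 3 together, in place of -2.94, -1.54, -2.08 and -6.56 by clonotypes. Counted with IGHV1-18, IGHV1-52 and IGHV1-72, the differences were -4.31, -2.05 and -1.34. With a V score lead of at least 20, the IGHV1-61 difference was -0.509 percentage points, the difference of IGHV1-62-3 in clonotypes without inserted nucleotides was 4.31 percentage points and no longer called, and the mean inserted length of that gene differed by -1.65 nucleotides, with 18 clonotypes left in the iB-μMT mouse. With at least 8 nucleotides of D, the difference in clonotypes without inserted nucleotides was 9.79 percentage points for IGHV1-26, then called, and 10.5 for IGHV1-62-3, then not called, and 4 V genes were called in place of 7. The cause was not tested. No paired analysis was possible because each group was 1 library. The 18 IGHV1-61 clonotypes of the iB-μMT mouse limit every value of that gene.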
